A study of Homo sapiens with 6 samples.

Results

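Kinesins are the motor proteins that walk along microtubules, and the 42 protein-coding genes of the family that carry a KIF or KIFC symbol were examined here among the 60656 genes in the count table. The rule for members uses the symbol alone and no measured value, but the family and its lists were chosen with earlier results of these data known. A further gene that matched the symbol pattern, KIF28P, was left out because it is not annotated as protein-coding. By their textbook roles 14 members were taken as mitotic, 17 as motors of cargo transport, and 11 as ciliary or other. RNA came from parental ZR-75-1 cells, an oestrogen receptor-positive luminal breast cancer line, grown in serum-supplemented medium for 4 days with abemaciclib at 500 nM or with an equal volume of its solvent DMSO, in 3 libraries per group that the study describes as independent biological replicates. Abemaciclib inhibits the cyclin-dependent kinases CDK4 and CDK6, which otherwise phosphorylate the retinoblastoma protein and release entry into S phase. The values describe a single cell line at 1 dose and 1 time. RB1 knockout libraries were not analysed here.

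Mitotic kinesins build the bipolar spindle, move and align chromosomes, and organise the midzone where the daughter cells separate, and their transcripts in cycling cells accumulate towards G2 and mitosis. Transport kinesins carry vesicles, mitochondria and other cargo along microtubules in dividing and resting cells alike. Late cell cycle genes are commonly bound by the DREAM and MYB-MuvB complexes at a short promoter element, the cell cycle genes homology region (CHR), often with an NF-Y-binding CCAAT box upstream of it, whereas many genes of the G1/S transition carry E2F sites.

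Libraries held 3317860 to 4013156 counts. On these raw totals 3 counts, the most that a count of 0 allows, corresponded to 0.748 to 0.904 CPM, the count scaled to a library of 1000000. The CPM values given below use library totals adjusted by TMM, on which 3 counts were 0.908 CPM in abemaciclib replicate 1. Each transcript is represented near its 3′ end whatever its length, so levels of different genes are set side by side in CPM without a length correction. All 6 luminal markers examined (ESR1, GATA3, FOXA1, KRT8, KRT18 and KRT19) were detected, with group means from 211 to 4279.8 CPM, and 6 of the 7 markers of leukocytes, fibroblasts, endothelium and basal or mesenchymal cells had 0 counts in every library. The remaining marker, COL1A1, had 13.1 CPM in DMSO and 12.5 CPM in abemaciclib.

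The promoters of the mitotic kinesins are shown first, because the letters they share were not used to choose them. RefSeq promoter windows on GRCh38.p14, 300 bases from 250 before to 50 after the first listed start, were matched by symbol for 34 of the 42 kinesins, which included all 14 mitotic members. The search covered both strands for the CHR (TTTGAA or TTCGAA), the CCAAT box (CCAAT) and an E2F-type site (TTTCCCGC, TTTGGCGC, TTTGCCGC or TTTCGCGC). In the lines that follow, 110 bases from 100 before to 10 after the start are printed 5′ to 3′ on the coding strand, with every match of these letters in capitals. Of the 10 tested members with a CHR match, 6 are shown as examples that differ in the spacing and kind of the letters, namely KIF4A (chrX:70290004-70290113, plus strand), KIF11 (chr10:92593030-92593139, plus strand), KIF14 (chr1:200620742-200620851, minus strand), KIF18A (chr11:28108147-28108256, minus strand), KIF23 (chr15:69414249-69414358, plus strand) and KIF15 (chr3:44761694-44761803, plus strand).
KIF4A: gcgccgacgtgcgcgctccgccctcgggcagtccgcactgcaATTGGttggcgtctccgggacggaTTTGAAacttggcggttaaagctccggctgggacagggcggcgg
KIF11: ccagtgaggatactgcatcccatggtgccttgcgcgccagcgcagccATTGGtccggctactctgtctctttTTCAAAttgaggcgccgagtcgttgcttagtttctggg
KIF14: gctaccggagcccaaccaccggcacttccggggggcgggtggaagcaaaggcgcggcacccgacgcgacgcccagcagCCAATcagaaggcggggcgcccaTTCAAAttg
KIF18A: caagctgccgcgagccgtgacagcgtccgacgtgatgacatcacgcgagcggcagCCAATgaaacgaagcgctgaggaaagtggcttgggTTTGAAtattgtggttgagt
KIF23: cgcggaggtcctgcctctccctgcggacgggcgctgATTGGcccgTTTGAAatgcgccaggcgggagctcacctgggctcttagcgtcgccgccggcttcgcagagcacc
KIF15: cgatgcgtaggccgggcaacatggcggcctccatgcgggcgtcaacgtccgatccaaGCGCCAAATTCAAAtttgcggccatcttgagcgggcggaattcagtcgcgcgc

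For contrast, KIF20A (chr5:138179012-138179121, plus strand) and KIF2C (chr1:44739737-44739846, plus strand) are printed as members with deep falls and no match to the CHR letters searched. Both stretches hold the letters TTTAAA, which were not searched, so a CHR of another spelling was not looked for. KIF1C (chr17:4997850-4997959, plus strand) is printed as a transport motor whose transcript rose.
KIF20A: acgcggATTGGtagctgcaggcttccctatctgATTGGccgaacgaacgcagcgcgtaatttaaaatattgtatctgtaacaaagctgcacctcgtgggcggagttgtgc
KIF2C: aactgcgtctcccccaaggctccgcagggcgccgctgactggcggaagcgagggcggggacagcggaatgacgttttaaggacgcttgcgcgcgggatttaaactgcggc
KIF1C: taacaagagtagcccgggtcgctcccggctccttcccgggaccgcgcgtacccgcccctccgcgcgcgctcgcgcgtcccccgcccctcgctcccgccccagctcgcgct

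A CHR match was present in 11 of 14 mitotic promoters (78.6%), against 1 of 12 matched transport promoters (8.33%), 1 of 8 ciliary or other promoters, and 16.6% of all 27305 promoter windows. Among genes that entered the expression test the share was 10.6% of 8589, and among those lower with abemaciclib 17.4% of 1142. CHR and CCAAT letters occurred together in 10 of 14 mitotic promoters, against 6.58% of all windows and 126 of the 1142 windows of lower genes. In KIF4A, KIF4B, KIF11 and KIF14 the distance from the first base of the CCAAT box to the first base of the CHR was 23 to 25 bases, in KIF18A, KIF18B and KIF22 it was 34 to 39 bases, and in KIF23, KIFC1 and KIF20B it was 9, 50 and 122 bases. KIF15 was the only mitotic member with an E2F-type match (3.33% of all windows held such letters). Of the letters searched, the window of KIF20A held CCAAT alone, and the windows of KIF2C and KIF2B held none. The transport promoter with a CHR match was that of KIF5B, at 140 bases before the start, and the ciliary or other promoter was that of KIF24. A match is only a match of letters, and factor binding was not measured in these libraries.

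Every kinesin of the mitotic list that could be tested fell with abemaciclib. Of the 14 members, 12 entered the test and all 12 were lower at an adjusted P under 0.05 (edgeR quasi-likelihood test, Benjamini-Hochberg adjustment over 10863 genes), against 13.3% of all genes tested. In each of the 12 every abemaciclib library lay below every DMSO library, which was so for 20.1% of all genes tested. Log2 fold changes ran from -4.98 to -1.22 with a median of -2.51, beside a median of -0.00 over all genes. The result depends on the list, which leaves out KIF2A and KIF24. With these counted as mitotic, 14 were tested, 12 were lower and 2 did not pass, with a median of -2.42. KIF20A, KIF18B and KIF2C passed the filter on low counts only through their DMSO libraries, while the other 9 passed it in each group taken alone, and those 9 were all lower. The members not tested were KIF2B, with 0 counts in every library, and KIF4B, an intronless near-copy of KIF4A, with 1 count in all. RNA was taken from whole cultures, so fewer cells in late cell cycle phases and less transcript per cell cannot be told apart.

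The spindle assembly motors kept between 9.90% and 19.5% of their DMSO level. KIF11 (Eg5), the plus-end motor that pushes spindle poles apart, had 55.1, 70.7 and 50.9 CPM in DMSO and 9.38, 13.3 and 7.30 CPM in abemaciclib. KIF15, which can share that task on spindle fibres, had 31.9, 36.5 and 30.0 CPM against 5.75, 6.41 and 7.03 CPM. KIFC1 (HSET), a minus-end motor that focuses poles and clusters centrosomes, had 54.5, 71.0 and 70.0 CPM against 7.56, 3.95 and 7.84 CPM. In each gene the lowest DMSO library stood well above the highest abemaciclib library. Log2 fold changes were -2.54 ± 0.22 (SE, n = 3 per group) for KIF11 (adjusted P = 2.58e-10, edgeR), -2.35 ± 0.24 for KIF15 (adjusted P = 1.39e-08, edgeR) and -3.35 ± 0.23 for KIFC1 (adjusted P = 2.37e-12, edgeR).

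Motors that act on chromosomes and microtubule ends ranged from 3.04% of the DMSO level left for KIF18B to 39.1% for KIF22. KIF18B, which shortens astral microtubules, had 44, 43 and 34 counts in the DMSO libraries and 1, 1 and 2 counts in the abemaciclib libraries, means of 11.9 ± 1.43 and 0.363 ± 0.156 CPM (SD, n = 3). KIF2C (MCAK), the centromeric microtubule depolymerase that corrects faulty attachments, had 40.03, 38.91 and 49.07 CPM in DMSO and 1.82, 5.18 and 2.97 CPM in abemaciclib. In both genes the highest abemaciclib library was far below the lowest DMSO library. KIF4A, a chromokinesin that also limits midzone length, had 112, 115 and 118 CPM in DMSO and 19.7, 24.7 and 17.6 CPM in abemaciclib. KIF18A, which damps chromosome oscillations at metaphase, had 29.9, 22.6 and 23.0 CPM against 5.45, 7.65 and 11.6 CPM. KIF22 (Kid), the chromokinesin that pushes chromosome arms outwards, had 93.1, 98.6 and 106 CPM against 45.7, 42.4 and 28.4 CPM. The groups were apart in all 5 genes and, in relative terms, closest for KIF18A, whose nearest libraries were at 22.6 and 11.6 CPM. The log2 fold changes were -4.91 ± 0.58 for KIF18B, -3.63 ± 0.28 for KIF2C, -2.47 ± 0.15 for KIF4A, -1.60 ± 0.27 for KIF18A and -1.36 ± 0.15 for KIF22, and the least significant of them, KIF18A, had an adjusted P of 4.87e-05 (edgeR).

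Among motors of the midzone and cytokinesis, the paralogues KIF20A and KIF20B had the largest and the smallest fitted log2 fold change of the mitotic class, although KIF18B kept about as little of its DMSO level (3.04%) as KIF20A (3.14%). KIF20A (MKLP2), which carries the chromosomal passenger complex to the midzone, had 101, 105 and 95 counts in the DMSO libraries and 3, 0 and 7 counts in the abemaciclib libraries, means of 29.8 ± 1.27 and 0.933 ± 0.946 CPM. Its paralogue KIF20B, which works late in abscission, was the most abundant mitotic kinesin in DMSO with 181, 178 and 155 CPM, and kept 71.4, 60.4 and 89.2 CPM in abemaciclib. The log2 fold changes were -4.98 ± 0.42 (adjusted P = 1.93e-10, edgeR) and -1.22 ± 0.13 (adjusted P = 2.15e-08, edgeR). The estimate for KIF20A moved to -4.35 without abemaciclib replicate 2, the library with 0 counts, and to -6.06 without abemaciclib replicate 3. Its 3′ end overlaps CDC23 on the other strand (395 counts in all against 311 for KIF20A), and whether the counting used strand was not given. KIF14, which recruits citron kinase to the cleavage site, had 93.7, 73.4 and 66.0 CPM in DMSO and 8.17, 7.15 and 6.21 CPM in abemaciclib. KIF23 (MKLP1), the motor subunit of centralspindlin, had 35.7, 32.4 and 18.5 CPM against 4.54, 7.89 and 4.05 CPM. Each again had its groups apart, at log2 fold changes of -3.44 ± 0.20 (adjusted P = 1.23e-13, edgeR) and -2.37 ± 0.30 (adjusted P = 5.33e-07, edgeR).

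**Figure D1:**
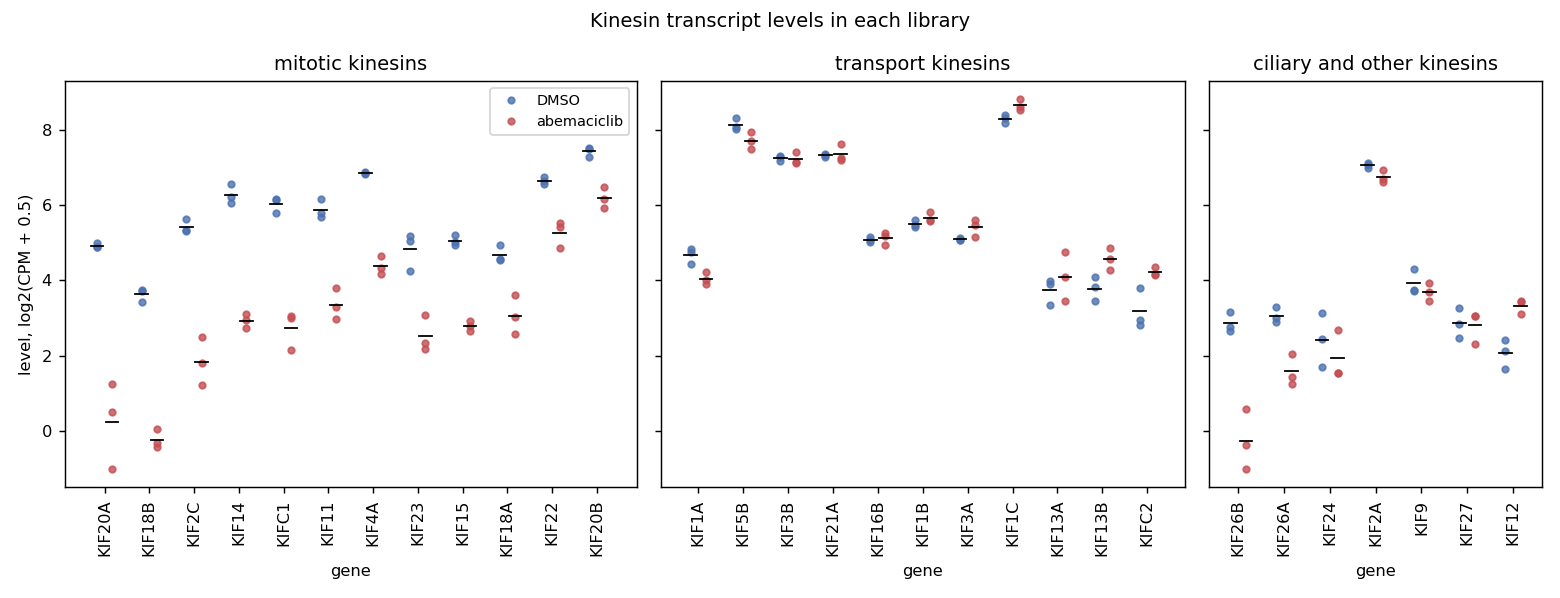
Level of each tested kinesin in every library, as log2(CPM + 0.5) on the vertical axis, with genes along the horizontal axis of 3 panels for the mitotic, transport, and ciliary or other classes. Points are single libraries (3 DMSO, 3 abemaciclib) and horizontal bars group means. The groups are apart for all 12 mitotic genes, whereas 5 of the 11 transport genes have overlapping groups.

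Transport kinesins had few calls, in both directions, and smaller changes than the mitotic class. Of 17 members 11 were tested, and 2 were lower and 3 higher, against 13.3% and 12.5% of all genes tested, while 6 did not pass. The median log2 fold change was 0.17, and the range of -0.65 to 1.01 lay wholly above the range of the mitotic class. The 6 members not tested (KIF5A, KIF5C, KIF3C, KIF17, KIF21B and KIFC3) had no more than 7 counts in any library. Members tested passed the count filter in both groups. Every abemaciclib library lay below every DMSO library in 2 of the 11 genes and above in 4, shares that stood at 20.1% and 19.1% over all genes.

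The ubiquitous conventional kinesin heavy chain KIF5B, which carries mitochondria and vesicles, had 314, 259 and 268 CPM in DMSO and 179, 207 and 245 CPM in abemaciclib. Its log2 fold change was -0.41 ± 0.11 (adjusted P = 0.00678, edgeR), and 75.0% of the DMSO level was left. The closest libraries of the groups were only 259 and 245 CPM, and the call was lost without DMSO replicate 1 (-0.33) and without abemaciclib replicate 1 (-0.31). KIF1A, a synaptic vesicle motor of neurons, was lower at -0.65 ± 0.22 (adjusted P = 0.0307, edgeR), with 21.2, 26.4 and 27.9 CPM against 18.2, 15.5 and 14.6 CPM. That call did not hold with DESeq2 (adjusted P = 0.0898), and the log2 fold change missed the threshold when any of 4 libraries was left out, at -0.61 (DMSO replicate 2), -0.57 (DMSO replicate 3), -0.62 (abemaciclib replicate 2) and -0.58 (abemaciclib replicate 3).

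Among the motors that rose, KIF1C, which moves integrin-bearing and secretory vesicles, had the highest mean of all kinesins in both groups. It had 332, 318 and 291 CPM in DMSO and 391, 366 and 445 CPM in abemaciclib, a log2 fold change of 0.35 ± 0.10 (adjusted P = 0.00858, edgeR). Without DMSO replicate 3 it did not pass (0.30). KIF13B, a kinesin-3 motor of membrane cargo, rose from 13.6, 10.4 and 16.4 CPM to 23.3, 18.8 and 28.4 CPM (log2 fold change 0.80 ± 0.25, adjusted P = 0.0158, edgeR), and KIFC2, a minus-end kinesin, from 7.25, 6.54 and 13.3 CPM to 17.5, 17.0 and 19.99 CPM (1.01 ± 0.29, adjusted P = 0.0101, edgeR). Neither pair of groups overlapped. KIF13B did not pass without DMSO replicate 2 (0.64) or abemaciclib replicate 3 (0.64), and KIFC2 did not pass without DMSO replicate 1 (0.87) or DMSO replicate 2 (0.82).

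The heterotrimeric kinesin-2 motor subunits, which drive anterograde traffic in cilia and of other cargo, did not pass the test. KIF3B stood at 157, 143 and 154 CPM in DMSO and 140.4, 138 and 170.0 CPM in abemaciclib (log2 fold change -0.02 ± 0.11). KIF3A had 33.1, 33.0 and 34.2 CPM against 35.1, 43.9 and 48.4 CPM, so its groups did not overlap although its log2 fold change of 0.35 ± 0.17 had an adjusted P of 0.143 (edgeR). The other 4 transport motors without a call were KIF21A at 0.04 ± 0.11, KIF16B at 0.06 ± 0.18, KIF1B at 0.17 ± 0.15 and KIF13A at 0.42 ± 0.30. KIF13A varied most, from 10.4 to 26.5 CPM among abemaciclib libraries, and its estimate was 0.019 without abemaciclib replicate 3.

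Of the 11 ciliary or other kinesins 7 were tested, of which 2 were lower and 1 higher (13.3% and 12.5% of all genes tested), with a median of -0.30. The 3 members that passed the count filter in each group taken alone (KIF2A, KIF9 and KIF27) included 0 lower and 0 higher at an adjusted P under 0.05 with edgeR or DESeq2, and 1 lower (KIF2A) and 0 higher at an unadjusted P under 0.05 with edgeR. KIF26B, an atypical kinesin thought to lack motor activity, had 20, 21 and 28 counts in DMSO and 0, 4 and 1 counts in abemaciclib, a log2 fold change of -3.83 ± 0.68 (adjusted P = 8.2e-05, edgeR) that ran from -5.26 without abemaciclib replicate 2 to -3.34 without abemaciclib replicate 1. Its close relative KIF26A had 9.28, 7.43 and 6.97 CPM against 3.63, 2.22 and 1.89 CPM (-1.62 ± 0.46, adjusted P = 0.00913, edgeR), and missed the threshold without DMSO replicate 1 (-1.48). Both fell at low levels, and both passed the count filter only through the DMSO libraries. KIF12, a kinesin known from epithelia of kidney and bile duct, rose from 2.61, 3.86 and 4.85 CPM to 8.17, 10.4 and 10.3 CPM (1.35 ± 0.40, adjusted P = 0.013, edgeR), a call that was lost without DMSO replicate 1 (1.14). KIF12 passed the filter only through the abemaciclib libraries. KIF2A, a microtubule depolymerase at spindle poles and in neurons, had 133, 126 and 138 CPM in DMSO and 103, 97.7 and 122 CPM in abemaciclib. Its groups did not overlap, and its log2 fold change of -0.30 ± 0.12 just missed the threshold (adjusted P = 0.0533, edgeR), which it passed when scaled by total counts alone (-0.32), when at least 10 counts were required in every library (-0.31) and without abemaciclib replicate 3 (-0.40). The 3′ end of KIF2A overlaps DIMT1 on the other strand (299 counts in all against 2528 for KIF2A). KIF24, a centriolar kinesin whose 3′ end overlaps UBAP1 on the other strand (321 counts in all against 95 for KIF24), was at -0.54 ± 0.51, with -1.12 without abemaciclib replicate 2 and -0.08 without DMSO replicate 2. KIF9, a motor of motile cilia, was at -0.25 ± 0.27 and KIF27 at -0.05 ± 0.40. The remaining members (KIF6, KIF7, KIF19 and KIF25) had no more than 7 counts in any library.

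**Figure D2:**
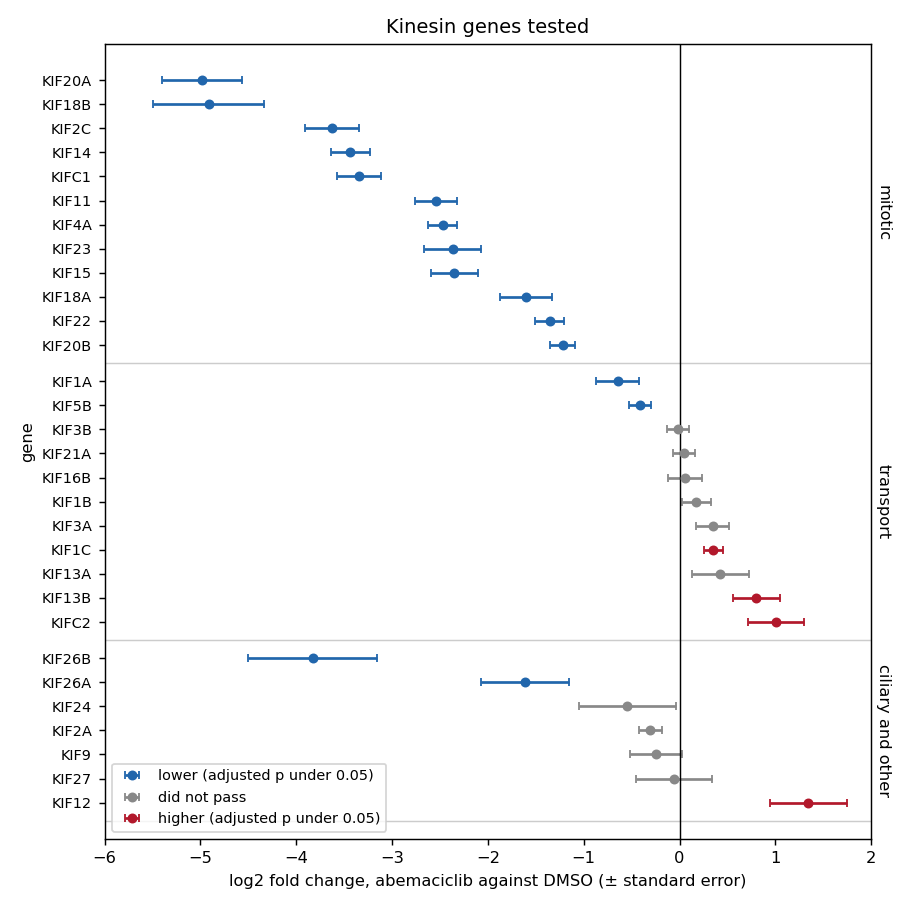
Log2 fold change of abemaciclib against DMSO (horizontal axis) with its standard error for the 30 kinesins tested, a row per gene grouped by class, coloured by whether the gene was lower, higher or did not pass at an adjusted P of 0.05. All 12 mitotic points lie at -1.22 or below, and the 11 transport points between -0.65 and 1.01.

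The make-up of the kinesin transcript pool shifted. Mitotic members made up 37.0%, 39.1% and 36.7% of all kinesin counts in the DMSO libraries and 13.2%, 13.1% and 11.4% in the abemaciclib libraries, means of 37.6% ± 1.32 and 12.6% ± 1.04 (SD, n = 3). Transport members went from 53.5% ± 1.18 to 77.6% ± 1.08, and the ciliary or other members from 8.89% ± 0.626 to 9.87% ± 0.158. Because shares must add up, the summed levels are given as well. The mitotic sum was 759 ± 29.6 CPM in DMSO and 182 ± 2.71 CPM in abemaciclib, whereas the transport sum was 1079.8 ± 49.5 and 1129 ± 132 CPM, with overlapping libraries (1043 to 1136 and 1050.4 to 1281 CPM). The ciliary or other sum was 179 ± 9.22 and 143 ± 14.5 CPM. With KIF2A and KIF24 counted as mitotic, the mitotic share was 44.4% in DMSO and 20.2% in abemaciclib.

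**Figure D3:**
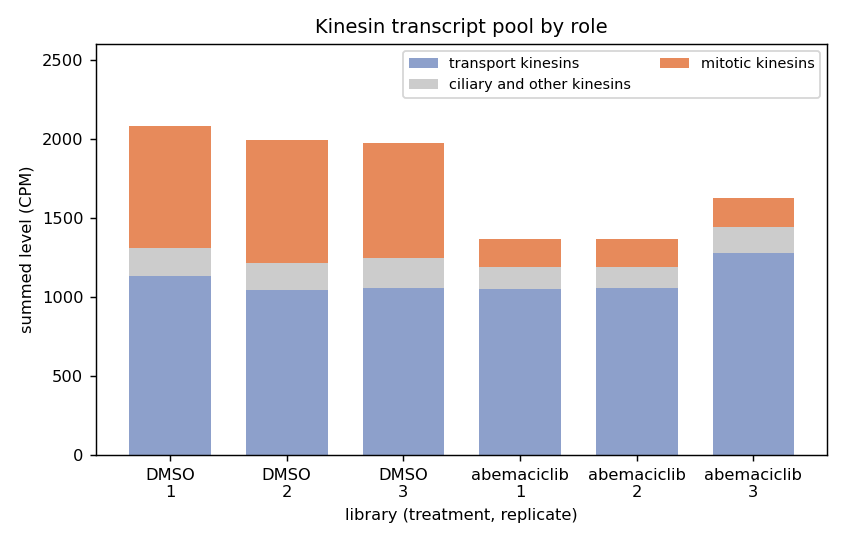
Summed level of the kinesin classes in each library, in CPM on the vertical axis that starts at 0, with stacked bars for the mitotic, transport, and ciliary or other members and a bar for each of the 6 libraries. The mitotic segment stands at 725 to 781 CPM in the DMSO bars and 179 to 185 CPM in the abemaciclib bars.

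Ratios between closely related motors are given for 4 pairs. The log2 ratio of KIF20A to KIF20B counts, with 0.5 added to each, averaged -2.52 ± 0.100 in DMSO and -6.83 ± 1.86 in abemaciclib (SD, n = 3). Likewise KIF18B to KIF18A went from -1.06 ± 0.216 to -4.05 ± 0.389, and KIF2C to KIF2A from -1.64 ± 0.128 to -5.07 ± 0.778. In these 3 pairs the groups did not overlap. Each holds a gene that passed the count filter only through the DMSO libraries, and the KIF20A ratio of abemaciclib replicate 2 rests on a count of 0. KIF13B to KIF13A averaged 0.03 ± 0.663 and 0.48 ± 0.375, with overlapping libraries. An exact permutation test over libraries gave P = 0.1 for each of those 3 pairs and P = 0.4 for KIF13B to KIF13A. With 3 libraries per group this test cannot give a P under 0.1, so it cannot decide. The pairs were chosen after the levels of their members had been seen, so the ratios are descriptions only.

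Genes that work with the mitotic motors were lower alongside them. Of 18 such partners, 17 were tested, 16 were lower and 0 higher at an adjusted P under 0.05 (17 lower and 0 higher at an unadjusted P under 0.05, edgeR; 16 and 0 with DESeq2), against 13.3% lower and 12.5% higher among all genes tested, with a median log2 fold change of -2.27. When at least 10 counts were required in every library, 13 were lower and 0 higher. AURKB, the kinase of the chromosomal passenger complex that KIF20A carries, had 72.8, 80.8 and 62.4 CPM in DMSO and 0.908, 0.493 and 0.540 CPM in abemaciclib (-6.75 ± 0.30, adjusted P = 1.96e-16, edgeR). PLK1, a mitotic kinase that docks on KIF20A, changed by -4.31 ± 0.18, and CENPE, a kinetochore kinesin outside the symbol rule, by -1.85 ± 0.14. Besides the genes with the largest changes, some partners of named motors are given, picked with their values known. CIT and RACGAP1, the partners of KIF14 and KIF23, were at -2.92 ± 0.34 and -2.84 ± 0.35, PRC1 and TPX2, which bind KIF4A and KIF11, at -2.27 ± 0.26 and -2.53 ± 0.11. AURKB, CIT, RACGAP1 and DLGAP5 passed the filter on low counts only through their DMSO libraries. NUMA1, which anchors dynein at spindle poles, did not pass (-0.25 ± 0.11, adjusted P = 0.0884, edgeR).

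Partners of the transport motors were mixed. Of 19 adaptors and light chains 18 were tested, with 3 lower (13.3% of all genes tested), 3 higher (12.5%) and a median of 0.19. The light chains KLC3 (-1.16 ± 0.36) and KLC2 (-0.84 ± 0.25) of conventional kinesin and the mitochondrial adaptor TRAK2 (-0.52 ± 0.18) were lower. The count of lower partners was 0 without DMSO replicate 3 or abemaciclib replicate 2, and 1 without DMSO replicate 1 or abemaciclib replicate 3. The KLC2 libraries overlapped, at 24.1 to 34.5 CPM in DMSO and 10.5 to 25.1 CPM in abemaciclib. The scaffold MAPK8IP3 (1.42 ± 0.51) and the mitochondrial GTPase RHOT2 (0.47 ± 0.11) were among the higher genes. MAPK8IP3 passed the filter on low counts only through the abemaciclib libraries, with 4.35, 0.594 and 4.85 CPM in DMSO and 13.6, 7.89 and 5.13 CPM in abemaciclib. When at least 10 counts were required in every library, 3 transport partners were lower and 2 higher. MAPK8IP3 shares its 3′ end with NME3, which had 2809 counts in all against 129, and KLC3 overlaps ERCC2. For the minus-end motor that opposes the kinesins, 26 of 28 genes of cytoplasmic dynein, dynactin and their adaptors were tested, with 2 lower (13.3% of all genes tested), 1 higher (12.5%) and a median of 0.03. NDE1, which recruits dynein to mitotic kinetochores and centrosomes, fell from 62.6, 58.2 and 55.7 CPM to 22.1, 21.5 and 23.5 CPM (-1.40 ± 0.17, adjusted P = 1.71e-07, edgeR). DYNC1LI1, a dynein light intermediate chain, was at -0.59 ± 0.17, and without abemaciclib replicate 2 only 1 gene of the dynein list was lower, while 2 were higher without abemaciclib replicate 3. The dynactin subunit DCTN5 rose from 53.1, 58.8 and 51.8 CPM to 114, 105 and 115 CPM (1.03 ± 0.13, adjusted P = 3.35e-07, edgeR).

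**Figure D4:**
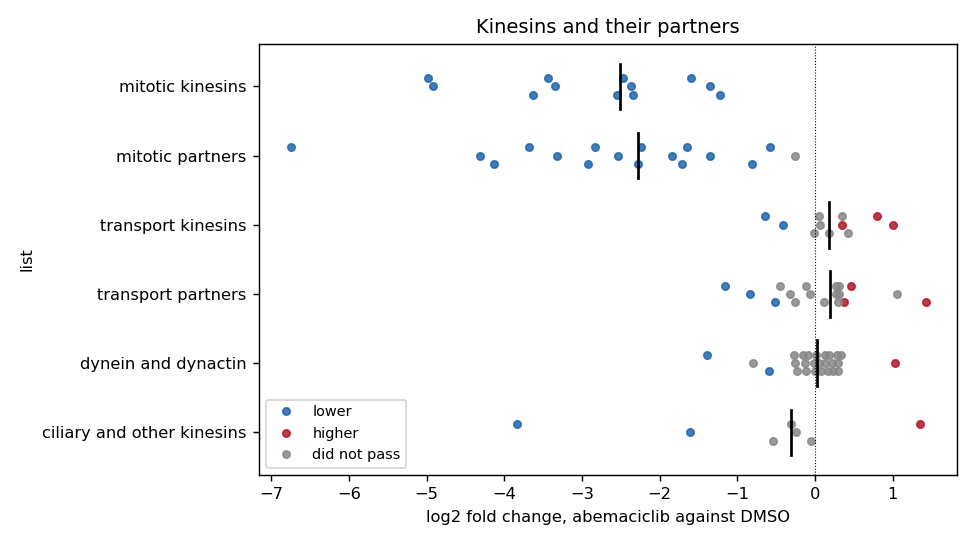
Log2 fold change of abemaciclib against DMSO (horizontal axis) for each tested gene of the kinesin classes, their partners, and dynein and dynactin, a row per list, with points coloured by whether the gene was lower, higher or did not pass. Mitotic kinesins and mitotic partners centre at -2.51 and -2.27, and the medians of the transport kinesins, transport partners and dynein genes are 0.17, 0.19 and 0.03.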

How the data were processed

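Transcripts of parental ZR-75-1 cells were profiled in 6 libraries, grouped by the treatment in the labels. The authors prepared 3′ mRNA libraries, trimmed reads with BBDuk and aligned these to hg38 (STAR, version 2.7.5b). Reads were counted per gene by the authors with featureCounts (version 2.0.1) and a GENCODE gene set. These raw counts are what was deposited, neither normalized nor filtered. A strand setting was not given in the sources used here. Symbols matched 60401 of 60656 genes by identifier, and gene overlaps were read from GENCODE release 44 on GRCh38 in the last 500 bases of each gene. Promoter sequences are from RefSeq (GRCh38.p14).

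Genes were filtered with filterByExpr, scaled by TMM and tested with edgeR 4.0.16 (R 4.3.3) by the quasi-likelihood method for abemaciclib against DMSO, without other terms, with Benjamini-Hochberg adjustment over 10863 genes and a threshold of 0.05. The biological coefficient of variation was 13.2%. CPM values are counts scaled to a TMM-adjusted library total of 1000000. The fit was tested on simulated data. Paralogue ratios are given as descriptions, because the exact permutation test run on them could not reach the threshold with 3 libraries per group. No molecular identifiers are described, so limits from a count of 0 cover counting error only. Alternatives were DESeq2 1.42.0, its size factors, total counts, other count filters, a replicate block and leaving out each library. By rule, all kinesins are named, called members averaging 5 CPM or more by library and the others by fold change or count range. Of the partner lists, the 3 largest falls and rises past the threshold and CENPE are named, except for an item that is not reported here. Other partners, and the counts of KIF26B (mean 3.63 CPM), were added after their values were seen. Members, lists and tests were chosen with earlier results of these data known. Protein sequences and RB1 knockout libraries were not used here. Replicates of the same number in the 2 groups did not deviate together (correlations of -0.04, 0.01 and -0.09), so numbers were not taken as pairs. No 2 libraries held duplicate values.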

Additional observations from a re-analysis of the deposited data

How the results depend on the processing

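The 12 lower mitotic calls held under every alternative in which the genes were tested, at 12 in each fit without a library and 9 of 9 with at least 10 counts in every library; their median lay between -2.78 and -2.39 without a library. Lower transport calls fell to 1 with DESeq2, and also to 1 with the replicate block (KIF1A, adjusted P = 0.0524), where the numbers do not pair the samples; the block changed no other kinesin call and left 1280 lower and 1139 higher genes overall. Without a library, transport calls were 1 lower (1 to 1) and 1 to 3 higher, and ciliary or other calls 1 to 3 lower and 0 to 1 higher, with 1 lower and 0 higher at a minimum of 10 counts. The transport median was 0.020 without a count filter. Partner medians were -2.40 (no filter) and -2.05 (at least 10 counts) for mitotic partners and 0.016 (at least 10 counts) for transport partners, and the dynein median was 0.068 without a filter. Without a library the mitotic partner median ran from -2.52 to -2.19, the transport partner median from 0.026 to 0.22 with 0 to 3 lower, and dynein from 0.036 to 0.074 with 1 to 2 lower and 1 to 2 higher. The mitotic share became 44.4% and 20.2% with KIF2A and KIF24. Uncalled genes that changed sign without a library were KIF3B (-0.12 to 0.043), KIF21A (-0.10 to 0.12), KIF16B (-0.014 to 0.15) and KIF27 (-0.24 to 0.18). The causes were not tested. Higher genes were 48.4% of called genes (45.7% with total counts). With 3 libraries per group and few counts, 12 of the 42 kinesins could not be tested.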
